A study of Mus musculus with 6 samples.

Results

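Peaks of open chromatin were examined at 9 genes through which white blood cells adhere: the integrin subunits Itgal, Itgam, Itgax, Itgad, Itgb2, Itga4 and Itgb1, the selectin ligand Selplg and the integrin ligand Icam1. They were 9 of 78252 annotated genes on the main chromosomes. A peak was given to a gene when its summit, the base with the most reads, lay in the gene body or within 3 kb of an annotated start. This gave 37 of the 62876 regions of the series, a region being the union of overlapping peaks of the 6 libraries. Of these, 19 belonged to Itgal, Itgam, Itgax and Itgad, which lie in that order on chromosome 7, and 18 to the other 5 genes. The question was how accessibility at the chromosome 7 neighbours compared with the other members in both groups.

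The assay was ATAC-seq: the transposase Tn5 cuts DNA where chromatin is open and leaves sequencing adapters there. Libraries were made from peripheral blood white blood cells after red cell lysis, with 3 libraries labelled control and 3 labelled HADA, high-altitude de-acclimatization. Per the study's methods, all mice were male C57BL/6j, and the HADA model was made by keeping mice in a hypobaric chamber that simulated high altitude and then moving them to normoxic conditions. The labels give no time of sampling after the return and no number of mice per library, so p-values measure the spread between these libraries. The methods call the cells leukocytes and the study's results call them mononuclear cells, and no sort is described. The start of Ptprc, which encodes the pan-leukocyte antigen CD45, had a peak in every library. The lists held 34045 to 41475 peaks in control against 44044 to 45799 in HADA. The background pileup, a measure of relative depth, ran from 1.69 to 2.05 and from 1.99 to 2.34, respectively.

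Each integrin is a pair of an alpha and a beta subunit. The alpha subunits of Itgal (CD11a), Itgam (CD11b), Itgax (CD11c) and Itgad (CD11d) all pair with the beta subunit of Itgb2 (CD18). The pair with Itgal is LFA-1, found on most white blood cells, and the pair with Itgam is Mac-1, which is abundant on neutrophils and monocytes. Itga4 and Itgb1 form VLA-4, an integrin of lymphocytes and monocytes that binds VCAM-1. Selplg encodes PSGL-1, which lets cells roll on selectins before LFA-1 and Mac-1 hold them to ICAM-1 on the vessel wall. Accessible chromatin is open to regulatory proteins, but it is not a measure of expression.

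The DNA at the summits of 8 regions is shown because the results turn on them. The first 6 lay in introns of the Mac-1, CD11c and CD18 genes and were lower in HADA, and the last 2, just upstream of Itga4 and Icam1, are shown for comparison because they differed little. Each line gives the summit base of the library with the highest pileup and 50 bases to either side on the plus strand of GRCm39, in lower case, with that base and any motif match in capitals. The summits of the other libraries need not lie in the window: the 6 summits spread over 734, 355, 875 and 62 bp in the 4 Itgam regions, in the order printed, over 157 bp in Itgax, 245 bp in Itgb2, 61 bp in Itga4 and 88 bp in Icam1. A region's place is given from the 5′ end of its gene, on the gene's strand.
Itgam region at 0.83 kb, chr7:127662593-127662693: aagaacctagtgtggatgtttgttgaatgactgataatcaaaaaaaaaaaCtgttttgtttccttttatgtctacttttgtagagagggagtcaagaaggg
Itgam region at 26.84 kb, chr7:127688593-127688693: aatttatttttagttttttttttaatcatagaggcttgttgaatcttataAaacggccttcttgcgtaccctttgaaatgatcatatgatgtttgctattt
Itgam region at 29.40 kb, chr7:127691158-127691258: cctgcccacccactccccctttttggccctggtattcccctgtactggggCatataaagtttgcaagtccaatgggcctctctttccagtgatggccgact
Itgam region at 52.93 kb, chr7:127714687-127714787: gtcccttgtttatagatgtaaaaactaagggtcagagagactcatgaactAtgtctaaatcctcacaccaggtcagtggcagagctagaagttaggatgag
Itgax region at 9.17 kb, chr7:127737790-127737890: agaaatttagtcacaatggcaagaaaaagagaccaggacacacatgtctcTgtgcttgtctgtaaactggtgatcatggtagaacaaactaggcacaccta
Itgb2 region at 6.67 kb, chr10:77372708-77372808: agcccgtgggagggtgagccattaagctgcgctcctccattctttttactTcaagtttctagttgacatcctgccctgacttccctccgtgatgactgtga
Itga4 region at −0.23 kb, chr2:79085382-79085482: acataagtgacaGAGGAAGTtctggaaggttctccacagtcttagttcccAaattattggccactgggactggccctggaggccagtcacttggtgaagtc
Icam1 region at −0.17 kb, chr9:20926456-20926556: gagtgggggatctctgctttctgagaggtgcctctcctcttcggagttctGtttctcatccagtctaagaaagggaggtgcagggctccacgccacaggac

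The capitals GAGGAAGT in the Itga4 window match the PU.1 motif, which 1.49% of all shared regions held in this window on either strand. Of the 15 member regions shared by all libraries, 2 held it, at Itga4 and at the Itgax region 4.31 kb from the 5′ end, which is not printed because it overlaps a UTR. None of the 15 held TGTGGTT (RUNX, 3.11% of shared regions), TGANTCA (AP1, 2.29%), CCGGAAGT (ETS, 1.10%), TTGCGCAA (CEBP, 0.0292%) or GGAATTTCC (NFKB, 0.0960%). These matches describe letters within 50 bases of the summit only. The Itgam windows at 0.83 and 26.84 kb were rich in A and T, with 33.7% and 27.7% G and C, while the window at 29.40 kb had 55.4%.

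Relative to the typical shared region, chromatin was called lower in HADA at the shared regions of Itgam and Itgax and at 2 internal regions of Itgb2. It was called higher at 1 region of Selplg, and many of these calls depended on the setting. At the starts of Itgal, Itgb2, Itga4, Itgb1 and Icam1, and inside Itgad, no region passed the test. Of the 37 member regions, 15 had a peak in all 6 libraries and could be tested (of all regions, 38.1% did). Here the pileup is the number of reads or fragments over a peak's summit, solved from the deposited fold enrichment and p-value. Its log2 was centred in each library on the median shared region, so each difference is relative to the typical shared region. limma, fitted over all 23970 shared regions with Benjamini-Hochberg adjustment at 0.05, called 8 of the 15 lower and 1 higher in HADA. Over all shared regions 24.1% were called lower and 17.9% higher. Of the 13104 that were the tallest shared region within 3 kb of a gene's start, 1421 were called lower and 2649 higher. Calls of lower were thus more frequent away from such start regions. The members called lower were 4 regions of Itgam, 2 of Itgax and 2 of Itgb2, most of them not start regions. All 3 HADA libraries lay below all 3 control libraries at 9 of the 15 regions (31.2% of all shared regions) and above them at 2 (29.3%). In unsorted blood, fewer cells of a type and less open chromatin per cell cannot be told apart.

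**Figure D1:**
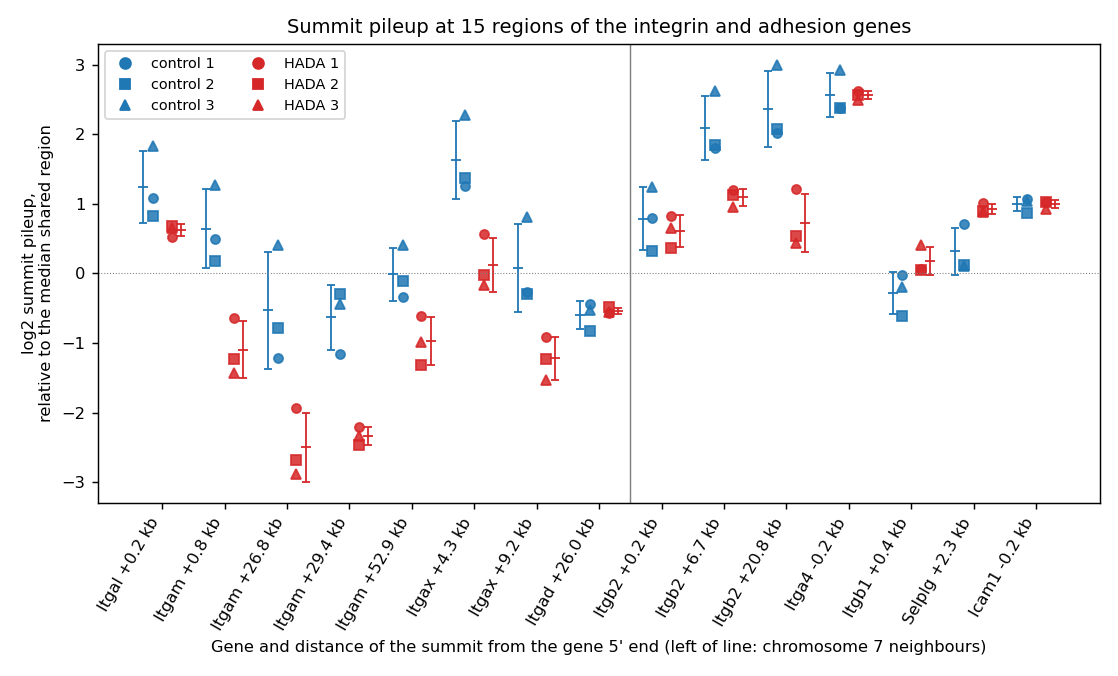
The plot of log2 summit pileup, relative to the median shared region, shows the 15 regions with a peak in all libraries, with 1 point for each of the 3 control (blue) and 3 HADA (red) libraries and bars for the mean ± SD. The HADA libraries lie below all control libraries at every Itgam and Itgax region, and the groups overlap at Itgad, the Itgb2 5′ end, Itga4 and Icam1.

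The calls depended on the libraries used and on the measure. Without HADA 2 the number of member regions called lower was 3, and without HADA 3 it was 5. Calls over all shared regions also fell, to 2021 lower of 24615 without HADA 2 and 3850 of 24491 without HADA 3, in place of 5769 of 23970. Without any other single library the member count was 8 or 9. With lists cut to an equal number of strongest peaks it was 4 of the 11 regions that were then shared. With peaks merged only where summits lay within 250 bp it was 6 of 12, of which 2 at Itgam, 2 at Itgax and 2 at Itgb2. In another setting, regions were ranked within a library by the deposited fold enrichment and the ranks were turned into normal scores, in SD units. Differences by fold rank are thus not on the log2 scale. On these scores limma called 0 of the 15 either way (4 had an unadjusted p under 0.05), against 11.3% of all shared regions. That fold is relative to the background around each peak and not to the genome-wide one. With pileup divided by the library background and not centred, the median shared region was higher in HADA by 0.38 on the log2 scale. On that scale 6 member regions were called lower and 2 higher, and over all shared regions the share of calls that were higher was 62.8% in place of 42.7%.

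Among the alpha subunits, Itgal lies first on the plus strand of chromosome 7 (chr7:126895432-126934320). Its start region (chr7:126895061-126896575, summit in a UTR exon at 0.18 kb) had summit pileups of 123, 98 and 174 in control against 132, 124 and 128 in HADA. Raw pileups overlapped, and after centring all HADA libraries were lower, at 0.62 ± 0.09 against 1.25 ± 0.52 (log2, SD, n = 3 each). The difference was −0.63 ± 0.26 on the log2 scale (SE, limma adjusted p = 0.0865), which did not pass the test. The rank difference was 0.0153, of the other sign. Without control 2 the region was called lower (−0.83, limma adjusted p = 0.0399), and without control 3, the tallest, the difference was −0.388 (limma adjusted p = 0.0912). Over background the difference was −0.25 (limma adjusted p = 0.498). Only 2 other Itgal regions were seen, 7.11 kb and 12.92 kb into the gene, in 2 libraries and in 1, with pileups of 13 to 18.

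Itgam (chr7:127661808-127717753) begins 727.5 kb after the end of Itgal. Its start region (chr7:127661529-127663523) had its summit in an intron at 0.83 kb, where the annotated gene Gm49368 also lies. Summit pileups were 82, 62 and 118 in control against 59, 33 and 30 in HADA, so all HADA libraries were lower before any scaling. The log2 difference was −1.75 ± 0.32 (SE, limma adjusted p = 0.0102), or 3.35-fold lower. By fold rank the sign was the same and the call was just missed (limma adjusted p = 0.0521). The 6 summits spread over 734 bp, so they need not mark 1 site, and with summits merged within 250 bp the region was no longer shared by all libraries.

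Inside Itgam, the intron region at 26.84 kb (chr7:127688216-127688881) had pileups of 25, 32 and 65 in control against 24, 12 and 11 in HADA. It showed the largest difference of the 15, −1.97 ± 0.43 log2 or 3.92-fold lower (SE, limma adjusted p = 0.0131), on small pileups: a pileup of 11 has an exact Poisson 95% interval of 5.49 to 19.7, for counting error only. The intron region at 29.40 kb (chr7:127690682-127692169) had 26, 45 and 36 against 20, 14 and 16. Its summits spread over 875 bp, so it too need not be 1 site. All HADA libraries were lower, with a log2 difference of −1.70 ± 0.25 (SE, limma adjusted p = 0.0088). The last, at 52.93 kb (chr7:127714370-127714962), had 46, 51 and 65 in control against 60, 31 and 41 in HADA. HADA 1 was within the control range before centring, and the log2 difference was −0.96 ± 0.26 (SE, limma adjusted p = 0.0229). Over background this call was lost (−0.58, limma adjusted p = 0.0948). Without HADA 2, 2 of these 4 Itgam regions were called, and without HADA 3, 3 were.

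Itgax (chr7:127728668-127749829) begins 10.9 kb after Itgam ends. Its tallest region near a start (chr7:127732449-127733531) lay 4.31 kb into the gene, upstream of an alternative start and in a UTR exon of another transcript. It had pileups of 139, 142 and 237 in control against 136, 76 and 72 in HADA. The log2 difference was −1.51 ± 0.32 (SE, limma adjusted p = 0.0123), or 2.85-fold lower. HADA 1, at 136, was close to control 1 and control 2. Without HADA 2 the call was lost, with a difference of −1.42 (limma adjusted p = 0.0520), and by fold rank it was not made (limma adjusted p = 0.336). The intron region at 9.17 kb (chr7:127737488-127738098) had 48, 45 and 86 in control against 49, 33 and 28 in HADA. It was lower, with a log2 difference of −1.30 ± 0.32 (SE, limma adjusted p = 0.0182), while its rank difference had the other sign (0.31, limma adjusted p = 0.225). Without HADA 2 neither Itgax region was called, and without HADA 3 the region at 4.31 kb alone was. At the 5′ end of the gene itself, control 1 alone had a peak, with a pileup of 37.

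Itgad (chr7:127753548-127822988) begins 3.7 kb after Itgax and, unlike the other 8 genes, had no peak within 3 kb of a start in any library. Its 1 shared region (chr7:127779154-127780165), in an intron at 25.98 kb, had pileups of 43, 31 and 34 in control against 62, 55 and 55 in HADA. All HADA pileups were higher as solved, but after centring the groups overlapped. The log2 difference was 0.06 ± 0.17 (SE, limma adjusted p = 0.805), with a 95% interval of −0.34 to 0.46. Another intron region, at 4.65 kb (chr7:127757541-127758343), had peaks in all HADA libraries, with pileups of 45, 42 and 39, and in control 1 alone, with 15. The region at 33.37 kb had a peak in every control library (21, 58 and 17) and in HADA 1 (17) and HADA 3 (23). Only the 1 shared region of Itgad could be tested, and it was not called, next to the genes that held 6 regions called lower.

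**Figure D2:**
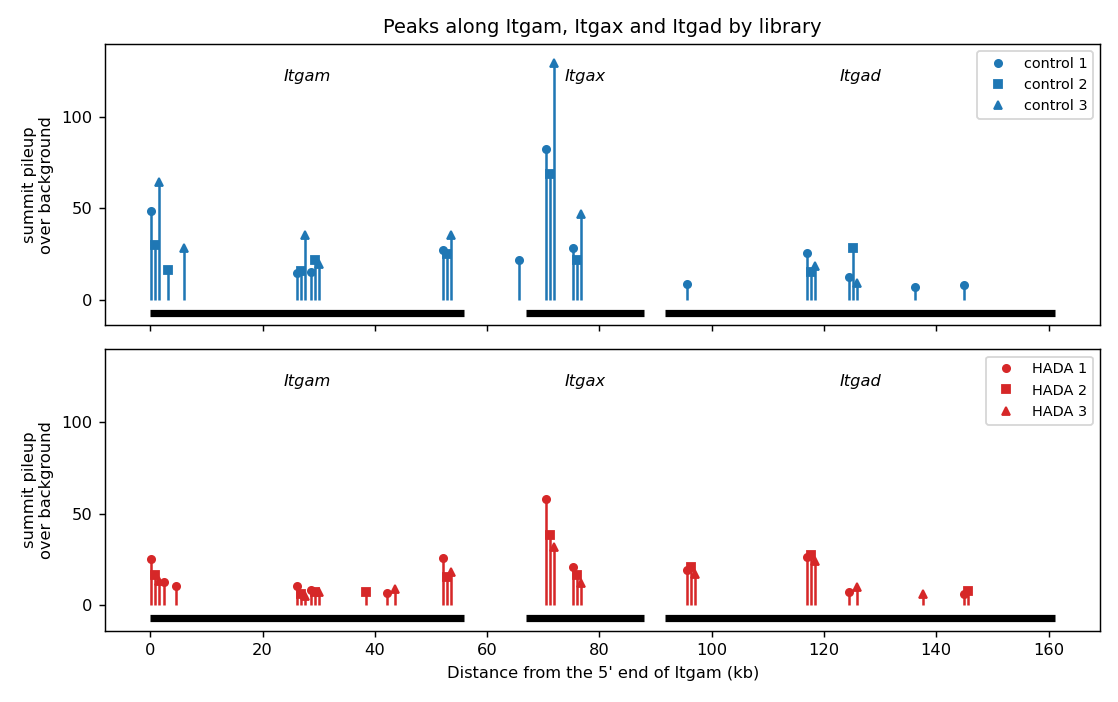
The map of peaks along Itgam, Itgax and Itgad gives summit pileup over library background (vertical axis) against distance from the 5′ end of Itgam in kb for control (top) and HADA libraries (bottom). Stems of 1 region are drawn slightly side by side and black bars are gene bodies; at the start regions of Itgam (0.83 kb) and Itgax (4.31 kb into its gene) every control stem is taller than every HADA stem, and the Itgad region at 4.65 kb (near 96 kb on the map) has 3 stems in HADA and 1 in control.

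Among the beta subunits, Itgb2 (chr10:77366086-77401542, plus strand) had unequal differences along its length. The region at its 5′ end (chr10:77365751-77367936, summit in a UTR exon at 0.21 kb) had pileups over background of 59.8, 33.6 and 63.4 in control against 69.6, 49.7 and 55.8 in HADA. The groups overlapped, also after centring, and the log2 difference of −0.18 ± 0.26 did not pass the test (SE, limma adjusted p = 0.601, 95% interval −0.77 to 0.42). The intron region at 6.67 kb (chr10:77372356-77374013) had summit pileups, here not divided by the background, of 202, 198 and 302 against 211, 168 and 157. It was lower in HADA, with a log2 difference of −0.998 ± 0.25 (SE, limma adjusted p = 0.0178), a call lost over background (limma adjusted p = 0.0736). The region at 20.80 kb (chr10:77385984-77387329), in a UTR exon of another transcript, had summit pileups of 235, 233 and 392 in control against 213, 112 and 110 in HADA. It was 3.11-fold lower, a log2 difference of −1.64 ± 0.32 (SE, limma adjusted p = 0.0110). Without HADA 2, and likewise without HADA 3, 1 of these 2 regions was called.

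A ratio within a library needs no scaling between libraries. These ratios were chosen after values had been seen, so they carry no test. The Itgb2 region at 20.80 kb was 2.33, 3.38 and 3.38 times as tall as the 5′ region in control against 1.31, 1.13 and 0.866 times in HADA. The region at 6.67 kb was 2.00, 2.87 and 2.60 times as tall in control against 1.29, 1.70 and 1.24 times in HADA. Both ratios were lower in every HADA library, but the difference between the internal regions and the 5′ region was not tested. Over all shared regions too, calls of lower were more frequent away from start regions. The Itgam start relative to the Itgb2 5′ region was 0.812, 0.899 and 1.02 in control against 0.362, 0.333 and 0.236 in HADA, again apart. The same ratio for the Itgal start was 1.22, 1.42 and 1.50 against 0.810, 1.25 and 1.01, which overlapped. Relative to the Itgal start, the Itgam start was 0.659 ± 0.0237 in control against 0.316 ± 0.115 in HADA (SD, n = 3 each), and the Itgax start region was 1.31 ± 0.165 and 0.735 ± 0.257, both with all HADA libraries lower.

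For the VLA-4 genes, the Itga4 region (chr2:79085021-79086507) lay 0.23 kb upstream of the 5′ end (gene body chr2:79085660-79163467, plus strand; Gm39866 overlaps). Averaged over the libraries it was the tallest of the 15, with pileups of 303, 285 and 373 in control against 566, 457 and 458 in HADA. The raw pileups of HADA were all higher, yet after centring the means were 2.56 ± 0.32 and 2.56 ± 0.06 (log2, SD, n = 3 each). The difference of 0.00 ± 0.20 (SE, limma adjusted p = 0.998) had a 95% interval of −0.46 to 0.46 and was 0.38 over background (limma adjusted p = 0.284). Itgb1 (chr8:129411876-129460618, plus strand), at its UTR exon region at 0.43 kb (chr8:129411616-129413041), had 57, 36 and 43 against 96, 80 and 108. All HADA libraries were higher on every scale of the pileup. The log2 difference of 0.45 ± 0.21 did not pass the test after centring (SE, limma adjusted p = 0.117), and over background it was 0.83 and did (limma adjusted p = 0.0153). With 1 library left out it was 0.287 (without control 2) to 0.589 (without control 1) and was not called. The ratio of the Itga4 to the Itgb1 region, 5.32, 7.92 and 8.67 in control against 5.90, 5.71 and 4.24 in HADA, overlapped.

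For the ligands, Selplg (chr5:113956597-113970705, minus strand; Gm71766 overlaps) held the 1 member region called higher. This exon region 2.31 kb into the gene (chr5:113968099-113969006, 140 bp from an annotated start) had pileups of 95, 60 and 53 in control against 185, 143 and 150 in HADA. All HADA libraries were higher, by 0.61 ± 0.21 log2 or 1.53-fold (SE, limma adjusted p = 0.0452). The call was near the threshold: it was lost with the replicate number as a block, by fold rank, and without control 2, control 3 or any 1 HADA library (limma adjusted p from 0.0703 to 0.131, with differences of 0.46 to 0.66 where a library was left out). At the 5′ end of Selplg (summit at 0.03 kb), control 1, control 2 and all HADA libraries had peaks, with pileups of 53, 56, 150, 113 and 120. Icam1 (chr9:20926672-20940113, plus strand) had 1 region in all, just upstream (chr9:20926071-20928063), with pileups over background of 72.3, 49.2 and 55.2 in control against 80.3, 78.8 and 67.7 in HADA. After centring its levels were 1.00 ± 0.11 and 1.00 ± 0.06 (log2, SD, n = 3 each), and the difference of −0.00 ± 0.16 (SE, limma adjusted p = 0.991) had a 95% interval of −0.37 to 0.36.

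**Figure D3:**
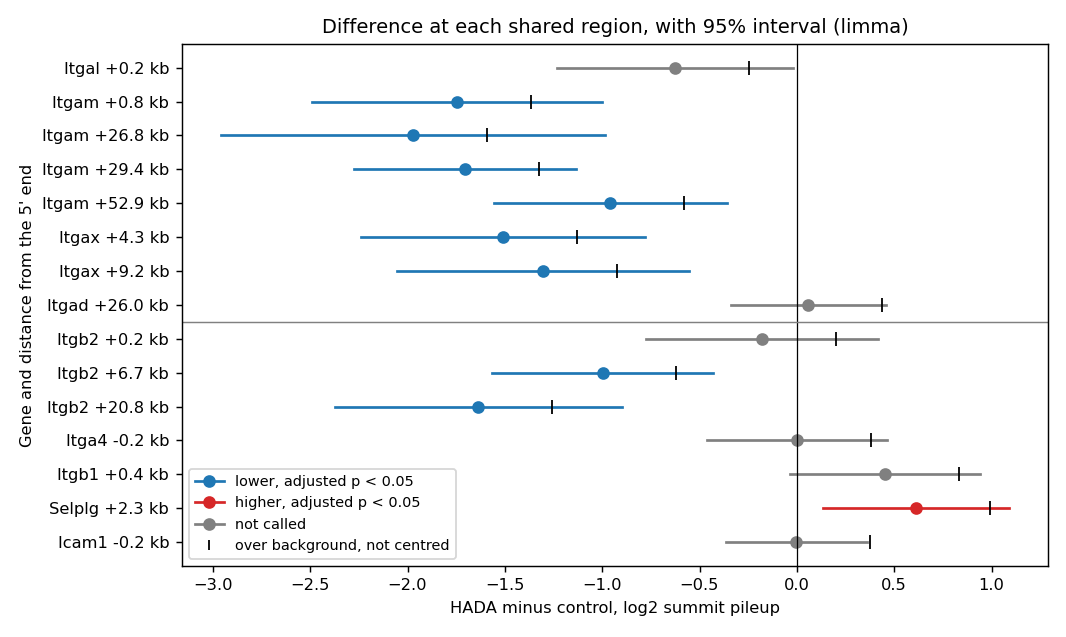
The plot of differences gives HADA minus control in log2 summit pileup at each of the 15 regions, with the 95% limma interval (bars) and the value over library background without centring (ticks). The 8 blue regions at Itgam, Itgax and Itgb2 lie between −1.97 and −0.96, and the red Selplg region lies at 0.61.

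Compared as sets, the neighbours were lower relative to the other members in every HADA library than in any control library. The mean centred log2 pileup of the 8 neighbour regions minus that of the 7 others was −1.32, −0.99 and −0.78 in control against −1.86, −2.03 and −2.12 in HADA. The difference between groups, −0.97 (pooled SD 0.214), has no p because the members were chosen with results known. With lists of equal length it was −0.509, and by fold rank −0.341, in normal scores and so not comparable in size. The median difference was −1.41 over the neighbours and −0.0024 over the others, beside −0.040 over all shared regions. Of the neighbours 6 of 8 regions were called lower, none of them at Itgal or Itgad, and of the others 2 of 7 were, both inside Itgb2. The sets also differed in kind of region: most of the others were start regions and most of the neighbours were not. At start regions the differences were −0.63, −1.75 and −1.51 for the neighbours against −0.18 to 0.61 for the others. Away from them the others had only the 2 Itgb2 regions, at −0.998 and −1.64. These lay within the range of the neighbours (−1.97 to 0.06), so the contrast was not seen there. The Itgam and Itgax start regions had the most alike profiles among the neighbours, with a root mean square difference of 0.174 log2 over the 6 libraries after each gene's mean was taken off, against 0.629 for Itgam and Itgal. Over all pairs of start regions, Itga4 and Icam1 were closest (0.169) and Itgam and Selplg farthest (1.27).

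The rest of the interval from Itgal to Itgad, 927.6 kb long, held 42 other protein-coding genes and 32 shared regions that belonged to no member. Of these 6 were lower, 3 were higher and 23 were not called, with a median difference of −0.089. All 9 calls lay in the 727.5 kb between Itgal and Itgam. The called region nearest to Itgal lay at Zfp768 and was lower (−0.85 ± 0.24 log2, SE, limma adjusted p = 0.0255), and the one nearest to Itgam lay at Pycard and was higher (0.61 ± 0.20 log2, SE, limma adjusted p = 0.0414).

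The number of peaks differed little. The 9 genes held 24.0 ± 2.65 peaks per control and 24.3 ± 2.31 per HADA library (SD, n = 3 each). The neighbours had 13, 11 and 10 in control against 15, 11 and 13 in HADA, and the others 14, 12 and 12 against 12, 12 and 10. For no single gene could 3 libraries against 3 give an exact permutation p under 0.1, and the two-sided p-values ran from 0.2 (Itgb2, 5, 4 and 5 against 4, 3 and 3 peaks) to 1. With lists of equal length, the mean number in HADA was lower by 4.67 in place of higher by 0.333, without control 1 it was higher by 1.83, and without HADA 1 lower by 1.

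Of the 37 member regions, none had a peak in all libraries of 1 group and in none of the other. Of all regions, 7.01% had this pattern for HADA and 1.88% for control. The 22 regions not shared by all libraries were mostly small. Itgb2 at 14.73 kb had a peak in every control library (47, 38 and 68) and in HADA 1 (38), and at 27.79 kb in control 1 (19) and control 3 (23) only. Itgam at 42.9 kb had a peak in HADA 1 (16) and HADA 3 (20) only, and at 38.46 kb in HADA 2 (14) only. Itga4 at 14.92 kb had pileups of 17, 19 and 12 in control and 23 in both HADA 1 and HADA 2. Selplg at 8.08 kb had 46, 31 and 53 in control and 34 and 37 in HADA 1 and HADA 2. Absence from a list is not absence of signal, since peaks below a pileup of 7 to 9 did not enter the lists at all.

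Around the members, 45 further genes of the adhesion pathway were read at their starts. Of the 33 with a shared start region, 7 were called higher and 5 lower, with a median difference of −0.089 against 0.0996 over all 13104 start regions of the annotation (2649 higher, 1421 lower). The integrin and ICAM genes called were all higher, while Itga1, Itga2b, Itgav, Itgb5 and Itgb7 were not called, with differences of −0.46 to 0.40. Itgb3, the beta subunit of the platelet fibrinogen receptor, had pileups of 59, 56 and 18 in control against 170, 171 and 171 in HADA (1.50 ± 0.38 log2, SE, limma adjusted p = 0.0194). Itga2, the alpha subunit of a collagen receptor, differed by 0.86 ± 0.27 (SE, limma adjusted p = 0.0380) and Itga6, of laminin receptors, by 0.69 ± 0.18 (SE, limma adjusted p = 0.0224). Of the ligands, Icam4, whose region also holds a start of Icam5, differed by 0.84 ± 0.21 (SE, limma adjusted p = 0.0189) and Icam2, which binds LFA-1, by 0.73 ± 0.21 (SE, limma adjusted p = 0.0261). The fold ranks gave positive differences for these 5 genes and called none of them. Itga5, the alpha subunit of a fibronectin receptor, had a smaller difference (0.52 ± 0.17, SE, limma adjusted p = 0.0403) and was also called higher by fold rank (limma adjusted p = 0.0242).

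The genes called lower were Fut7, St3gal4, Cd44, St3gal6 and Fut4. Fut7, a fucosyltransferase that acts on selectin ligands such as PSGL-1, had centred log2 levels of 1.10, 0.82 and 1.69 in control against 0.13, 0.06 and −0.61 in HADA (−1.34 ± 0.29 log2, SE, limma adjusted p = 0.0130). St3gal4, a sialyltransferase of the same chains, had 160, 157 and 202 against 118, 104 and 102 (−1.30 ± 0.20, SE, limma adjusted p = 0.0090) and was also called by fold rank (limma adjusted p = 0.0331). St3gal6 (−0.83 ± 0.23, SE, limma adjusted p = 0.0257) and Fut4 (−0.76 ± 0.25, SE, limma adjusted p = 0.0437) were lower too, St3gal6 with a rank difference of the other sign (0.05). Not all enzymes of sugar chains in the list had this direction. Gcnt1, which branches them, was higher (0.50, limma adjusted p = 0.0397), and B4galt1, a galactosyltransferase, had a difference of 0.36 with all HADA libraries higher and was not called (limma adjusted p = 0.122). Cd44, a hyaluronan receptor, was lower (−1.27 ± 0.31, SE, limma adjusted p = 0.0175), with a rank difference of the other sign (0.21, limma adjusted p = 0.286). No peak lay near a start of Sele or Vcam1, ligands of the vessel wall, in any library, nor of Itgae, Madcam1, Jam3 or Fyb2.

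The members' profiles can be set beside genes outside the list. Of 11366 protein-coding genes compared over the 6 libraries, those most like the Itgam start were Pilra, Tnfrsf1a and Treml4, with root mean square differences of 0.0557, 0.0593 and 0.0945 log2. Those most like the Itgal start were Flna (0.0523), Adgrg3 (0.0546) and Cmtm6 (0.0670). For Tnfrsf1a, a tumour necrosis factor receptor, the pileups were 231, 199 and 360 in control against 181, 103 and 89 in HADA, and for Flna, which encodes an actin crosslinker, 161, 141 and 243 against 193, 172 and 174. In both, control 3 was the tallest library, as it was at the starts of Itgal, Itgam and Itgax. The points of such a profile share libraries, so likeness describes these 6 libraries alone.

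Markers of the blood cell types moved with the group. Of 10 neutrophil genes, 6 had a shared start region and 5 of these were called lower, with a median difference of −1.75. Their summed pileup over background was 168.4 to 382.6 in control against 90.1 to 153.0 in HADA. Ly6g had a peak near its start in 1 control and no HADA library, Ltf in 2 and none, Retnlg in 3 and 1, and Camp in none. Of 8 monocyte genes, 5 had a shared start region and all 5 were called lower, with a median of −1.11, and the sums were 148.0 to 215.6 and 124.9 to 147.0. The other 3 had no shared start region and so no measured difference: Ccr2 had a peak near its start in 1 control and 3 HADA libraries, Ms4a6c in 2 and 3, and Ly6c2 in all 6. Of 8 B cell genes, 4 were shared and all 4 were higher, with a median of 2.00, and the sums were 28.4 to 128.5 and 281.9 to 349.5. Cd79a, Ebf1, Blk and Cd22 each had a peak near a start in 2 control and 3 HADA libraries. Of 10 T cell genes, 7 were shared and 3 were higher, with a median of 0.48, sums of 246.3 to 331.1 and 399.3 to 457.2, and no peak near a start of Cd8a in any library. The 2 shared of 7 NK cell genes and the 1 shared of 8 erythroid and platelet genes were not called. Of the other NK cell genes, Ncr1 had a peak near its start in 2 control and no HADA libraries and Klrb1c in no control and 3 HADA libraries. Eomes and Klrd1 each had a peak in 2 control and 3 HADA libraries, and Gzma in no control and 1 HADA library. NK sums were 25.3 to 48.6 and 46.6 to 62.0, and the erythroid and platelet sums, which rested on Itga2b, were 9.29 to 14.2 and 14.5 to 22.7. Of 5 genes of all white blood cells, 2 were lower, with a median of −0.59 and overlapping sums of 494.1 to 823.1 and 556.7 to 699.9. The part of the cell mix in the differences at Itgam, Itgax, Itgb2 and Selplg was not tested.

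**Figure D4:**
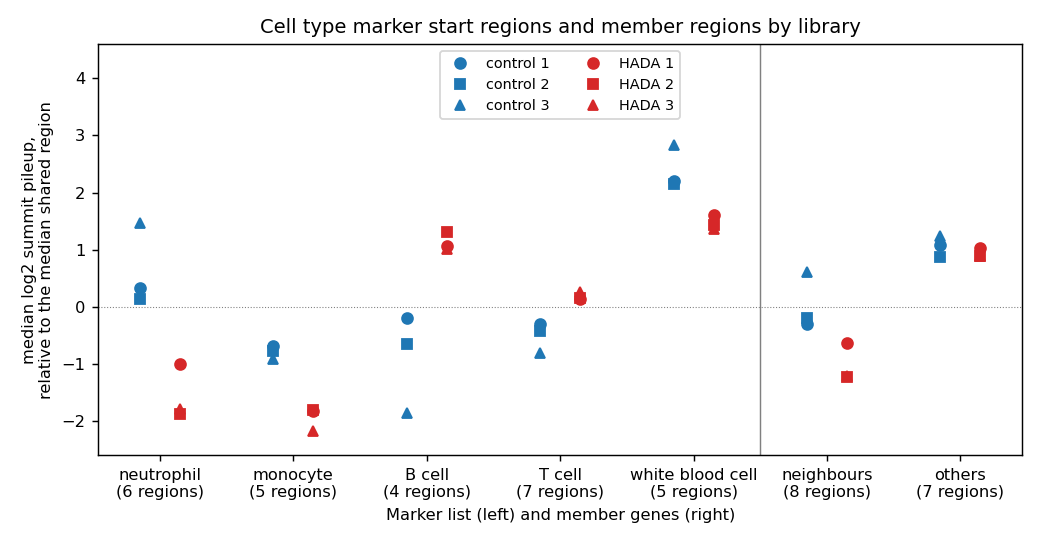
The plot of marker and member medians gives, for each library (blue control, red HADA), the median log2 summit pileup relative to the median shared region over the shared start regions of 5 marker lists (left) and over the shared regions of the neighbours and the other members (right). The HADA libraries lie between −1.88 and −0.997 for neutrophil genes, against 0.13 to 1.47 in control, and the neighbours are lower in HADA, while the other members lie between 0.88 and 1.24 in every library.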

How the data were processed

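ATAC-seq was done on 6 libraries, 3 control and 3 HADA, grouped by their labels. Per the labels and the study's methods, the authors used FastQC, Trimmomatic, Bowtie2 (GRCm39), Picard and MACS2. MACS2 options, versions and any shift of reads for Tn5 are not given in the sources used here, and peaks were called per library. The deposited lists hold for each peak a fold enrichment over local background (a ratio), p-values and q-values as −log10, and a score.

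From these the summit pileup and background were solved, with fold = (pileup + 1) / (background + 1) and a Poisson p, which returned the deposited values for 100% of peaks. Peaks sharing 1 bp were merged (Python 3.11.15), summits were placed on GENCODE M39 genes, and log2 pileups, centred per library on the median shared region, were compared with limma 3.58.1 (R 4.3.3), group only, adjusted p under 0.05. The procedure was also run on simulated pileups in which few regions changed, equally up and down. Many more regions were called in these data, so that run does not test the centring here. Peak counts per gene used a two-sided exact permutation test.

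The members and lists were chosen with earlier results of these data known. Named were all members, their start regions (tallest shared region within 3 kb of a start), every called member region, up to 5 pathway genes per direction by size (Itga5, Gcnt1, B4galt1 and the interval genes Zfp768 and Pycard were added after values were seen), and 3 genes most like Itgal and Itgam. Of 45 pathway genes 44 were matched by symbol (Fyb was not). Counting intervals cover counting error only, and total read depth is unknown. The same-numbered replicates did not pair: the correlation of their deviations from the group means was −0.0797, 0.0751 and −0.376. Alternatives were fold ranks, pileup over background, a replicate block, a mean pileup of at least 20, a −log10 q of at least 5, the same number of strongest peaks (34045), summits within 250 bp, a limma trend and leaving out each library.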

Additional observations from a re-analysis of the deposited data

How the results depend on the processing

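Of the 15 member regions, 8 were called lower and 1 higher. By fold rank, limma called 0 lower and 0 higher. With lists cut to an equal number of strongest peaks 4 were lower, over background 2 were higher, and with the replicate number as a block 0 were higher and 8 lower, although the numbers did not pair the libraries. Leaving out 1 library gave 3 to 9 lower (3 without HADA 2, 5 without HADA 3) and 0 to 1 higher. The neighbours' mean difference minus the others' was −0.970 log2, against −0.509 with lists of equal length and −1.11 to −0.851 with 1 library left out. By fold rank it was −0.341, in normal scores and so not comparable in size. The difference in peaks per library, 0.333, was −4.67 with lists of equal length and −1.0 to 1.83 with 1 library left out. Of the start regions, those of Itgb2, Itga4 and Icam1 stayed on their side of the threshold in all 14 alternatives. Itgal was called without control 2, Itgb1 over background, Itgam was lost by fold rank and could not be tested in 2 (lists of equal length, and summits merged within 250 bp) because it was no longer shared, Itgax was lost by fold rank and without HADA 2, and Selplg in 7. No called start region changed sign. Over all regions, leaving out HADA 2 gave 737 higher and 2021 lower in place of 4291 and 5769. The causes were not tested. Total read depth is unknown, and the precision it allows was not measured.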
